A study of Homo sapiens with 4 samples.

Results

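The ubiquitin-conjugating enzymes, or E2s, were followed in KYSE30 cells depleted of YY1 by RNA interference. The set was every protein-coding gene of the deposited table whose symbol begins with UBE2, read-through names left out, which gave 34 of 30716 genes (15774 of them protein-coding). RNA-seq had been done on KYSE30, an established human esophageal squamous cell carcinoma line, in 2 libraries from cells with a hairpin against YY1 (shYY1) and 2 libraries from cells with a negative-control hairpin (shNC). Stable cells had been selected with puromycin, per the labels' protocols. YY1 is a zinc finger protein that binds promoters and can either activate or repress them. The labels give neither the sequence nor the number of the hairpins, and all libraries come from 1 cell line.

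Ubiquitin reaches its substrates along a relay. An E1 enzyme activates ubiquitin, an E2 carries it as a thioester on its active-site cysteine, and an E3 ligase brings the E2 to the substrate. The E2 often sets the kind of chain that is built, so a cell's E2 repertoire shapes whether a protein is degraded, relocated or recruited into a signalling complex. Some E2s carry a ubiquitin-like modifier instead: UBE2M and UBE2F carry NEDD8, and UBE2L6 carries ISG15.

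YY1 was counted 2606 and 2344 times in the shYY1 libraries, against 8147 and 7960 times in the shNC libraries. This was 35.7 ± 1.96 CPM (counts scaled to library size) in shYY1 and 113 ± 4.23 CPM in shNC (SD, n = 2 each), a 3.17-fold lower level in shYY1 (log2 fold change -1.67 ± 0.088 SE, edgeR quasi-likelihood test, adjusted p = 6.18e-05). Total counts were 67390336 to 72499865 per library. The labelled cell type was checked against squamous markers: TP63 had 3761 and 3499 counts in shYY1 and 3730 and 3214 in shNC, whereas KRT5, a basal keratin, had only 45 and 31 counts in shYY1 and 25 and 33 in shNC. The extraction text of the labels speaks of retina, and the 4 retina markers in the table summed to 0.242 to 0.351 CPM in shYY1 and 0.600 to 0.638 CPM in shNC, with RLBP1 at 0. Immune, endothelial and stromal markers summed to at most 6.11, 4.87 and 7.15 CPM in a library, with PTPRC and CD3E at 0. Whether the replicates came from separate cultures is not stated, so every p reflects library-to-library spread that may be technical.

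Across the UBE2 genes, 3 were higher in shYY1 and none was lower at an adjusted p under 0.05 (edgeR quasi-likelihood test, adjusted over all 18035 genes tested). Genes past that threshold are referred to as called. An unadjusted p under 0.05 was held by 9 of 32 tested UBE2 genes, against 4525 of all 18035 genes tested. The genes that passed were UBE2O, a large E2 that also acts as its own ligase, UBE2F, which carries NEDD8, and UBE2B, a RAD6 homologue of DNA damage tolerance. They rose 1.48-fold, 1.33-fold and 1.25-fold. Of the 34 genes 32 were tested, so 9.38% of those tested passed, next to a background of 9.94% of all tested genes in either direction (5.05% higher and 4.90% lower). With this filter the share of UBE2 genes called was close to that of all genes tested, many of them measured less precisely. The closeness depends on the filter. With at least 5 CPM in 2 libraries, 4 of 31 UBE2 genes were higher and 1 lower, against 2412 of all 10708 genes called. In bulk RNA, a change in the number of cells of a type and a change in RNA per cell cannot be told apart.

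Differences of the UBE2 genes were mostly small. Their median absolute log2 fold change was 0.09, against 0.26 over all genes tested, and the log2 fold changes ran from -0.26 for UBE2D3 to 0.56 for UBE2O. The median log2 fold change was 0.06 (0.01 to 0.08 over the alternative settings), against -0.01 over all genes, with 20 positive and 12 negative values. UBE2 genes were also measured more precisely than the median gene, with a median standard error of 0.0866, against 0.167 for all genes. The medians of absolute change were therefore not compared at like precision. The 95% interval lay within 1.5-fold in either direction for 28 of the 32 tested genes, the exceptions being UBE2O, UBE2F, UBE2D1 and the scarcely expressed UBE2L6. The shYY1 and shNC libraries did not overlap in CPM for 19 of the 32 genes (59.4%), against 54.9% of all genes tested.

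**Figure D1:**
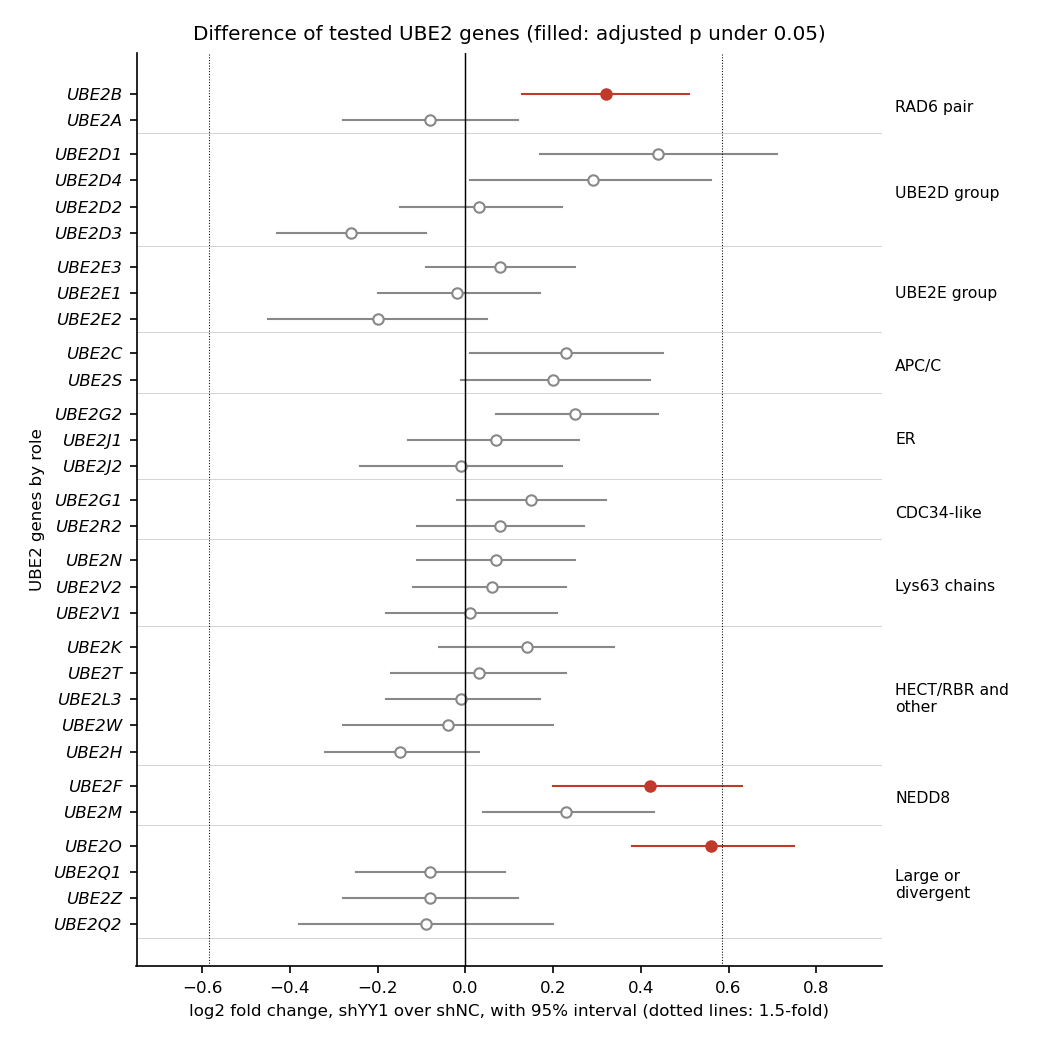
Log2 fold change of shYY1 over shNC (x axis, edgeR) with its 95% interval for tested UBE2 genes, UBE2L6 left out for its wide interval, grouped by role (y axis). Filled points have an adjusted p under 0.05, dotted lines mark 1.5-fold, and the 3 filled points (UBE2O, UBE2F and UBE2B) all lie to the right of 0.

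The count of 3 depends on the libraries and the test. It was 1, UBE2O, when either shYY1 library was left out, where 5.94% (without replicate 1) and 5.32% (without replicate 2) of all genes were called. It was 5 higher and 1 lower without shNC replicate 1, next to 9.49% of all genes, and 6 higher and 1 lower without shNC replicate 2, next to 17.3% of all genes. DESeq2 called 5 higher (UBE2O, UBE2F, UBE2B, UBE2D1 and UBE2G2) and 1 lower (UBE2D3), against a background of 15.0% of all 18035 genes given to that tool. That share also counts genes left without an adjusted p, UBE2L6 among them. Scaling by library totals alone left 1 higher, UBE2O, and 1 lower, UBE2D3, next to 9.47% of all genes called, and moved the share of higher genes among all calls to 40.3%, against 50.8% with TMM scaling.

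The E2 repertoire of these cells was led by a few genes. Levels are compared between genes as FPKM, the authors' length-scaled values. UBE2S, which extends Lys11-linked chains for the anaphase-promoting complex (APC/C), was highest at 140 and 145 FPKM in shYY1, against 122 and 135 FPKM in shNC. UBE2C, which starts those chains on mitotic substrates, had 96.9 and 99.2 FPKM in shYY1, against 81.0 and 92.4 FPKM in shNC. UBE2L3, the E2 of HECT and RING-between-RING ligases, had 64.7 and 62.3 FPKM in shYY1, against 66.3 and 65.9 FPKM in shNC. Both APC/C enzymes thus stood above every other E2 in every library.

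UBE2E3, a UBE2E-group enzyme, had 55.6 and 54.8 FPKM in shYY1 and 56.9 and 51.9 FPKM in shNC. UBE2V1, the catalytically inactive partner of UBE2N in building Lys63-linked chains, had 44.7 and 42.1 FPKM in shYY1 and 42.8 and 46.2 FPKM in shNC. In both genes the groups overlapped in FPKM. In CPM those of UBE2E3 did not (198 and 201 in shYY1, against 193 and 185 in shNC). These 5 genes made up 48.3% and 48.1% of the summed FPKM of all UBE2 genes in shYY1, and 46.1% and 48.2% in shNC. The summed FPKM itself was 833 and 839 in shYY1 and 800 and 812 in shNC, and the genes took 0.377% and 0.384% of all counts in shYY1 and 0.371% and 0.376% in shNC.

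Neighbours among the first 5 ranks did not overlap over the 4 libraries, and UBE2V1 also stayed above UBE2D2 (39.5 to 41.0 FPKM). Further gaps lay below UBE2M, UBE2T, UBE2V2, UBE2J1, UBE2E2 and UBE2W, and the other neighbours among the tested genes overlapped. UBE2D2 could not be ranked against UBE2M (35.3 to 42.0 FPKM), nor UBE2K, UBE2N and UBE2Q1 (means of 22.3, 22.3 and 22.1 FPKM) against each other. At the low end UBE2E2, UBE2Q2, UBE2D4 and UBE2W averaged 5.26, 3.32, 3.31 and 2.69 FPKM over the 4 libraries. UBE2L6 stood far below them at 0.184 FPKM, with 39 and 22 counts in shYY1 and 35 and 36 in shNC.

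Both untested genes were close to absent. UBE2U had 4 and 0 counts in shYY1 and 0 and 0 in shNC, and UBE2L5, a close relative of UBE2L3, had 4 and 5 counts in shYY1 and 2 and 0 in shNC. A count of 3 in a library corresponds to 0.0416 to 0.0439 CPM, so no fold change is given for either gene.

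**Figure D2:**
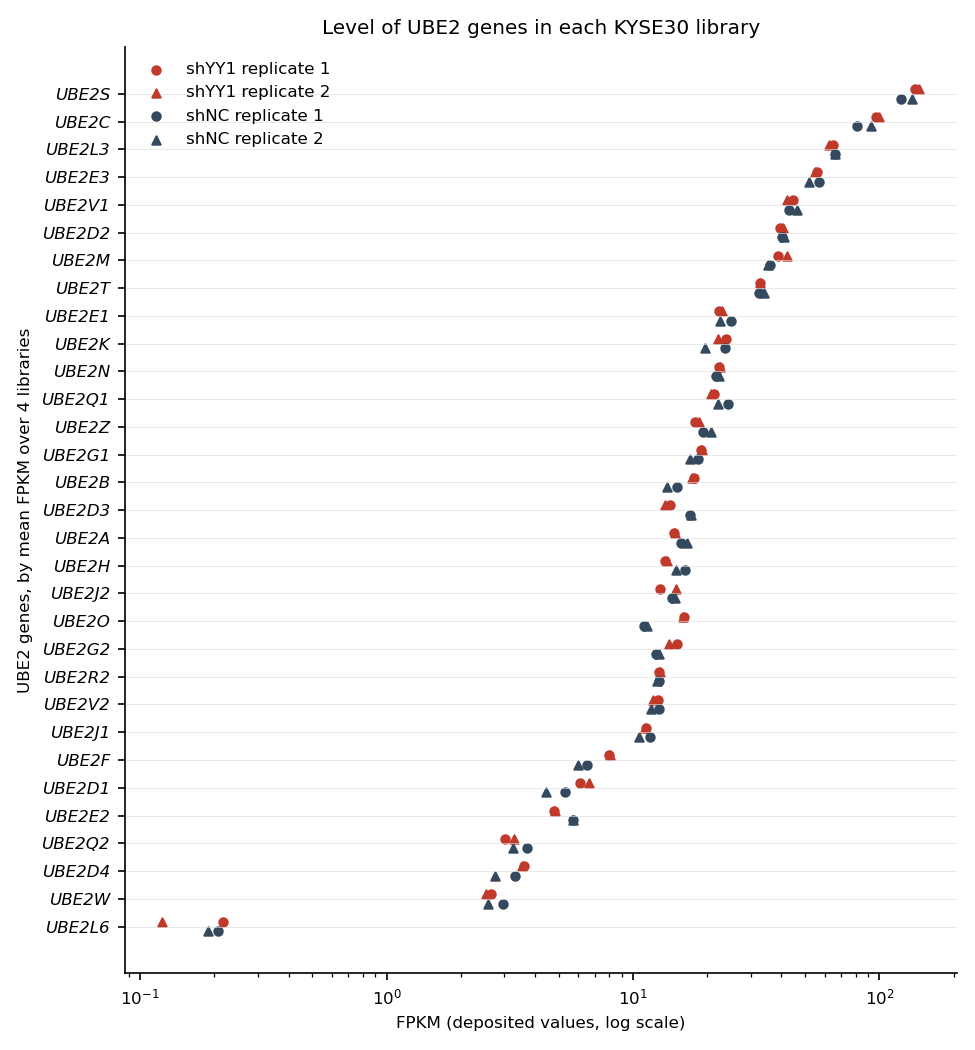
Deposited FPKM (x axis, log scale) of tested UBE2 genes (y axis, by mean over the 4 libraries) in shYY1 and shNC replicates. UBE2S and UBE2C lead in every library. UBE2O, below the middle of the order, is the gene whose shYY1 points stand most clearly to the right of its shNC points.

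UBE2O showed the largest difference in the family. Its enzyme is unusually long, combines E2 and E3 activity, and clears unassembled proteins, among them ribosomal proteins and globins in differentiating red cells. The gene (ENSG00000175931, chromosome 17, 76389456 to 76453152, minus strand in the deposited table) had 8681 and 8566 counts in shYY1, against 5655 and 6338 counts in shNC. The shYY1 libraries lay close together and well above both shNC libraries. This was 124 ± 1.32 CPM in shYY1 and 84.3 ± 5.03 CPM in shNC (SD, n = 2 each), a log2 fold change of 0.56 ± 0.0809 SE with a 95% interval of 0.38 to 0.75 (edgeR, adjusted p = 0.00423). UBE2O passed in all 14 alternative settings, with log2 fold changes of 0.48 to 0.63 and adjusted p-values of at most 0.0149. No other gene of the table overlaps it.

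UBE2F rose by less. It transfers NEDD8 to cullin-5 together with the RING protein RNF7. The gene (ENSG00000184182, chromosome 2, 237966827 to 238042782, plus strand) had 2855 and 2867 counts in shYY1, against 2205 and 2197 in shNC, with little spread within either group. It averaged 41.3 ± 0.949 CPM in shYY1 and 31.0 ± 0.726 CPM in shNC (SD, n = 2 each), with a log2 fold change of 0.42 ± 0.0953 SE and a 95% interval of 0.20 to 0.63 (edgeR, adjusted p = 0.0282). The edgeR call did not hold without shYY1 replicate 1 or 2 or with library totals alone (edgeR adjusted p = 0.0541). The log2 fold change stayed between 0.32 and 0.44 in all alternative settings. The processed pseudogene UBE2FP1 had 28 and 96 counts in shYY1 and 58 and 16 in shNC, 1.96% of the UBE2F count over the 4 libraries, and the read-through gene UBE2F-SCLY had at most 13 counts in a library.

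UBE2M, the other NEDD8 E2, serves most other cullins with RBX1. It had 5680 and 6152 counts in shYY1, against 4992 and 5338 in shNC, both shYY1 libraries higher, with a log2 fold change of 0.23 (edgeR, adjusted p = 0.135). The ratio of UBE2F to UBE2M counts was 0.503 and 0.466 in shYY1 and 0.442 and 0.412 in shNC. With 2 libraries against 2, an exact two-sided permutation test cannot give a p below 0.333, and this ratio and the 4 other ratios given below all reached that value, a family of 5.

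UBE2B and UBE2A are near-identical homologues of yeast Rad6. They ubiquitinate PCNA with RAD18 and histone H2B with RNF20 and RNF40. UBE2B (ENSG00000119048, chromosome 5, 134371469 to 134390605, plus strand) had 4616 and 4528 counts in shYY1, against 3765 and 3734 in shNC. It averaged 66.0 ± 0.422 CPM in shYY1 and 52.8 ± 1.41 CPM in shNC (SD, n = 2 each), and its log2 fold change was 0.32 ± 0.0838 SE with a 95% interval of 0.13 to 0.51 (edgeR, adjusted p = 0.0444). This is the weakest of the 3 calls, and it held in 8 of 14 alternative settings. It was lost without shYY1 replicate 1 or 2 (adjusted p = 0.270 and 0.308), with library totals alone (0.0849), without robust estimation (0.0539) and on both FPKM scales (0.0583 and 0.0586), with log2 fold changes between 0.25 and 0.35 throughout.

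UBE2A had 6398 and 6466 counts in shYY1, against 6469 and 7499 in shNC, and its groups overlapped (log2 fold change -0.08, edgeR adjusted p = 0.644). The ratio of UBE2B to UBE2A counts was 0.721 and 0.700 in shYY1, against 0.582 and 0.498 in shNC, so the balance within the pair differed by 0.40 on the log2 scale, beyond the spread within either group (SD 0.0304 and 0.159). UBE2A shares its locus with NKRF on the opposite strand, and the labels do not say if counting used strand, so reads of the 2 genes cannot be told apart. No gene of the table overlaps UBE2B.

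**Figure D3:**
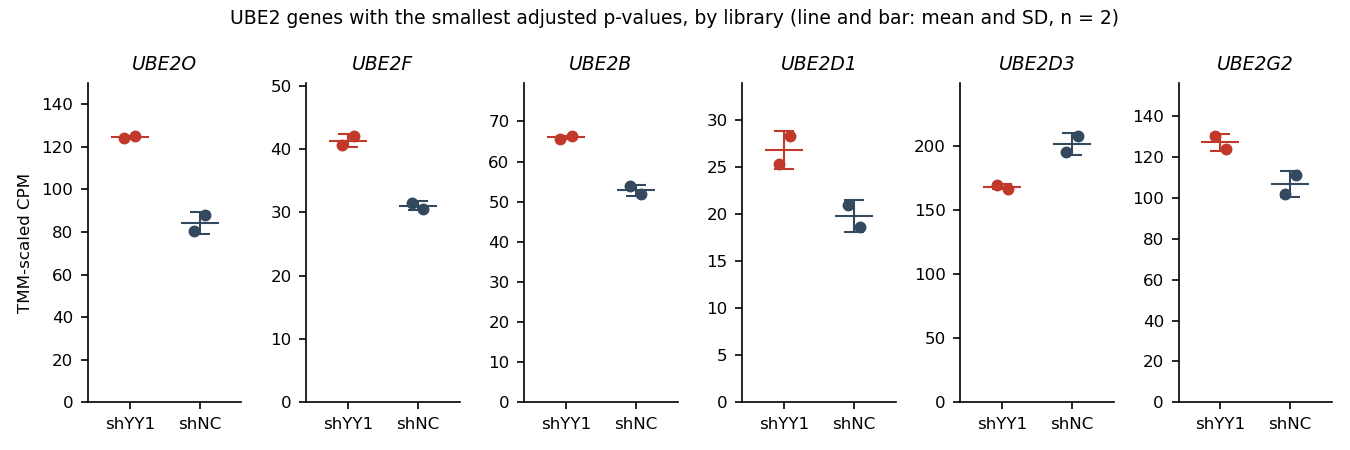
TMM-scaled CPM (y axes from 0) of the 6 UBE2 genes with the smallest adjusted p-values in each shYY1 and shNC library, with the mean and SD (n = 2 each). No gene's groups overlap: shYY1 is higher for UBE2O, UBE2F, UBE2B, UBE2D1 and UBE2G2 and lower for UBE2D3. The genes were picked by this same comparison, so the separation adds no support, and 54.9% of all genes tested did not overlap either.

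The UBE2D group, the general-purpose E2s of RING ligases such as MDM2, CBL and the inhibitor of apoptosis proteins, showed differences in both directions, none of which passed. UBE2D1 had 1787 and 1931 counts in shYY1, against 1473 and 1342 in shNC (log2 fold change 0.44 ± 0.119 SE, edgeR adjusted p = 0.0511). UBE2D3 had 11954 and 11421 counts in shYY1, against 13728 and 14993 in shNC (log2 fold change -0.26 ± 0.0763 SE, edgeR adjusted p = 0.0660). Both lie next to the threshold: UBE2D1 passed in 6 and UBE2D3 in 8 of 14 alternative settings, each with the sign given here.

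UBE2D4 had 1439 and 1404 counts in shYY1, against 1256 and 1130 in shNC (log2 fold change 0.29, edgeR adjusted p = 0.179), and UBE2D2 had 11826 and 12159 counts in shYY1, against 11411 and 12638 in shNC (0.03, adjusted p = 0.850). Counts of the other group members relative to UBE2D3 were higher in both shYY1 libraries. These ratios share UBE2D3 as denominator, whose own log2 fold change was -0.26, so they are not separate observations. UBE2D2 by itself overlapped between the groups. UBE2D1 per UBE2D3 was 0.149 and 0.169 in shYY1, against 0.107 and 0.0895 in shNC. UBE2D4 per UBE2D3 was 0.12 and 0.123 in shYY1, against 0.0915 and 0.0754 in shNC, and UBE2D2 per UBE2D3 was 0.989 and 1.06 in shYY1, against 0.831 and 0.843 in shNC. UBE2D4 overlaps POLR2J4 on the opposite strand, which had 357 and 481 counts in shYY1 and 235 and 415 in shNC. Its share in the UBE2D4 count was not tested. The proteins of this group are close to identical, and the labels do not say how counting treated reads shared between such genes.

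Among the E2s of the cell cycle, UBE2C had 10481 and 10711 counts in shYY1, against 8307 and 10291 in shNC (log2 fold change 0.23, edgeR adjusted p = 0.189). UBE2S had 33053 and 34146 counts in shYY1, against 27228 and 32689 in shNC (0.20, adjusted p = 0.229). In each gene shNC replicate 1 was the low library, and both genes passed when shNC replicate 2 was left out (log2 fold changes 0.37 and 0.32) and in no other setting. UBE2S overlaps the abundant ribosomal gene RPL28 on the opposite strand, which had 53990 and 57507 counts in shYY1 and 51100 and 60621 in shNC, and its share in the UBE2S count was not tested.

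Of the E2s at the endoplasmic reticulum (ER), which act in the degradation of misfolded proteins, UBE2G2 had 9117 and 8451 counts in shYY1, against 7118 and 7994 in shNC (log2 fold change 0.25 ± 0.0813 SE, edgeR adjusted p = 0.0849). It passed with DESeq2 and without shNC replicate 2. The membrane-anchored UBE2J1 and UBE2J2 had log2 fold changes of 0.07 and -0.01. UBE2G1 and UBE2R2, which extend Lys48-linked chains with cullin-RING ligases, had 0.15 and 0.08.

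None of the Lys63-chain enzymes passed. UBE2N, the main catalytic E2 for these chains, had 11166 and 11293 counts in shYY1 and 10365 and 11556 in shNC (log2 fold change 0.07), and its partners UBE2V2 and UBE2V1 had 0.06 and 0.01. UBE2V1 shares its strand and locus with the read-through gene TMEM189-UBE2V1, which took 0 and 695 counts in shYY1 and 1550 and 0 in shNC. Counted together, the 2 genes had 18110 and 17717 counts in shYY1 and 18016 and 19286 in shNC. UBE2N overlaps NUDT4 on the opposite strand (9131 and 8872 counts in shYY1, 8893 and 8237 in shNC).

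The rest did not pass either. UBE2E1, UBE2E2 and UBE2E3 had log2 fold changes of -0.02, -0.20 and 0.08. UBE2E1 overlaps NKIRAS1 on the opposite strand, which had 1695 and 1684 counts in shYY1 and 899 and 1451 in shNC. UBE2H, the E2 of the CTLH ligase, was lower in both shYY1 libraries, with 7378 and 7544 counts in shYY1, against 8444 and 8492 in shNC (log2 fold change -0.15, edgeR adjusted p = 0.285). UBE2K, which builds Lys48-linked chains, had 0.14 and passed only without shNC replicate 1. UBE2L3, UBE2T (the Fanconi anemia E2) and UBE2W (which modifies protein N termini) had -0.01, 0.03 and -0.04, and UBE2Z (the E2 charged by UBA6), UBE2Q1 and UBE2Q2 had -0.08, -0.08 and -0.09. UBE2Q2 is the gene with the largest share on an annotated copy, UBE2Q2P2 having 11.3% of its count over the 4 libraries, and no other annotated copy exceeded 2.82% of its parent.

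**Figure D4:**
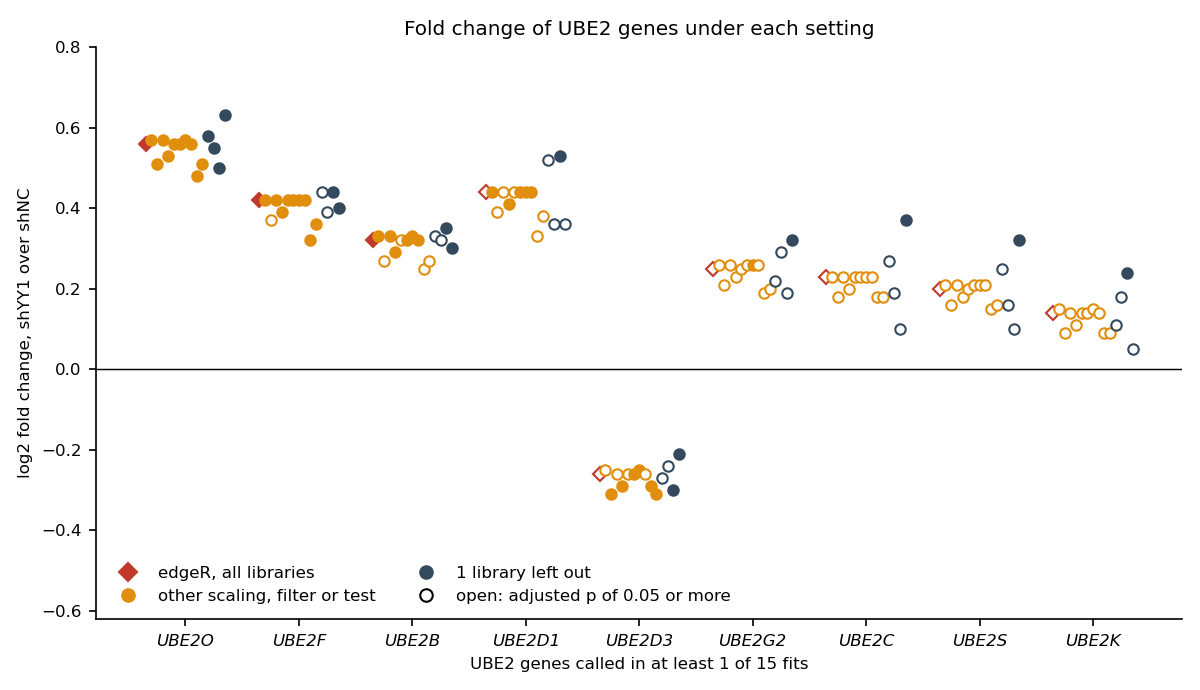
Log2 fold change of shYY1 over shNC (y axis) for the 9 UBE2 genes that passed in at least 1 of 15 fits (x axis), with the edgeR fit on all libraries as a diamond, other scalings, filters or tests in orange and fits without 1 library in dark blue. Open symbols have an adjusted p of 0.05 or more, and only UBE2O is filled throughout.

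YY1 binds DNA, so the promoters were read for 2 strings of letters that resemble its binding site. RefSeq promoters (GRCh38.p14, 250 bases before to 50 bases after the annotated start) were matched for 26 of the 34 genes. UBE2B, also called higher, was not among them, so its promoter was not read. The promoters of 2 genes that rose are shown, with that of UBE2G1 as the clearest case of an upstream match, and capitals mark the letters found.
UBE2O, chr17:76453103-76453402, minus strand: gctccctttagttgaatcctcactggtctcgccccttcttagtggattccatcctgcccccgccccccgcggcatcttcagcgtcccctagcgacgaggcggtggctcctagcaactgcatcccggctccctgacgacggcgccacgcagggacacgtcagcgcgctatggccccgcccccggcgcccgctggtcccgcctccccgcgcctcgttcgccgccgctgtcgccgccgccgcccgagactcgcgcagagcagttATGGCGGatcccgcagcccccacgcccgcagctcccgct
UBE2F, chr2:237966764-237967063, plus strand: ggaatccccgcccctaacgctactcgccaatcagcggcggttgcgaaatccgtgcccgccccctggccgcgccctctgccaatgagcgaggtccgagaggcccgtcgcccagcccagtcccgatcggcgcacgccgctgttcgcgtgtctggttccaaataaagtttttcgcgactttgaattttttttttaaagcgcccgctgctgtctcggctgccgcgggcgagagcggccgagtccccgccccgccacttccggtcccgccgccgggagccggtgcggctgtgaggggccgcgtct
UBE2G1, chr17:4366626-4366925, minus strand: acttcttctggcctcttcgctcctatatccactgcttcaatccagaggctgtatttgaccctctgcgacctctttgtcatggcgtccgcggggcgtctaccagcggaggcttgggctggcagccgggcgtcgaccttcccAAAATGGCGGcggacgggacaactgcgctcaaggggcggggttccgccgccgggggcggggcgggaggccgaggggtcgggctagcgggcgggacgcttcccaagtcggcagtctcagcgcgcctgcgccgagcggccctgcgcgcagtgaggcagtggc

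The string ATGGCGG, on either strand, was in 3 of 26 UBE2 promoters (11.5%), against 9.94% of 11343 promoters of tested genes and 5.72% of all 27305 promoters. These were UBE2O, UBE2G1 and UBE2N. Counted with the first transcribed base as 1, the UBE2O match begins at base 12 and lies over the annotated start codon, whereas the UBE2G1 match begins 107 bases before the start. The shorter AANATGG, which can overlap the first string as it does in UBE2G1, was in 5 of 26 (19.2%), against 15.4% of promoters of tested genes and 15.9% of all promoters. The UBE2F promoter held neither string in this window, and UBE2G1, which held both, did not pass the test (log2 fold change 0.15). Among all tested genes ATGGCGG was in 12.0% of promoters of genes higher in shYY1 and 9.33% of promoters of genes lower in shYY1. A match is a description of the letters and not evidence of binding.

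Another feature of these libraries concerned 3′ UTRs. An earlier search of the same data had found that genes with TTCAGAA or TCAGAAA in the 3′ UTR were lower in shYY1, so the counts here are no independent support. The overlapping words were searched on the transcript strand in 9647 genes, of which 2925 (30.3%) held one. Their median log2 fold change was -0.11, against 0.07 for genes without one, and 506 of the 760 genes lower in shYY1 held a word, as did 141 of the 833 higher.

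Of 30 UBE2 genes searched, 12 (40%) held a word, and their median log2 fold change was 0.06, against 0.08 for UBE2 genes without one. The UBE2 3′ UTRs were also longer, with a median of 1715 bases against 1109 over all genes searched. Whether length accounts for the higher share was not tested. No UBE2 gene with or without a word was called lower, and UBE2O, UBE2F and UBE2B, the 3 genes called higher, held none. The genes with the most words were UBE2H and UBE2J1, with 4 each, and their first sites are shown as DNA with the words in capitals.
UBE2H: agcacctgcttTTCAGAAAgactattatt
UBE2J1: tgaaaggcctcTTCAGAAAactattatct
The UBE2H word begins at base 19 of a 4205-base 3′ UTR and the UBE2J1 word at base 2285 of 3054 bases. UBE2H had a log2 fold change of -0.15 and UBE2J1 of 0.07, neither passing the test. UBE2D3 was read only in the 58-base 3′ UTR of its transcript with the longest coding sequence.

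The genes that work before and after the E2s are given beside them. Of 136 listed partners 132 were tested, and 15 were higher and 10 lower (18.9%, against the background of 9.94%). The median log2 fold change of the partners was 0.05. This contrast with the background depends on the filter. With at least 5 CPM in 2 libraries, 16 partners were higher and 16 lower, against 2412 of all 10708 genes called. Their median absolute log2 fold change was 0.21, above the 0.09 of the UBE2 genes and below the 0.26 of all genes tested. All 7 of those that passed in every alternative setting are named below, namely UBA3, CDC27, TRAF2, RMND5A, SIAH2, MDM2 and BIRC2. Each of the other 18 lost its call when shYY1 replicate 1, shYY1 replicate 2 or either of them was left out, with adjusted p-values of up to 0.466 across the settings.

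On the NEDD8 side, UBA3, the catalytic subunit of the NEDD8 E1, rose 1.47-fold. It had 4802 and 4666 counts in shYY1, against 3357 and 3227 in shNC (log2 fold change 0.56 ± 0.0869 SE, edgeR adjusted p = 0.00587). Its partner subunit NAE1 had 6333 and 6331 counts in shYY1, against 5589 and 5477 in shNC, and did not pass (0.23, adjusted p = 0.108). DCUN1D3, which helps NEDD8 transfer to cullins, was higher (0.72, adjusted p = 0.0113), and the substrate CUL4B was lower (-0.58, adjusted p = 0.0184), but DCUN1D3 lost the call without shYY1 replicate 2 (adjusted p = 0.0511) and CUL4B without that library or shNC replicate 1 (adjusted p of at most 0.0946). Of the RING partners, RNF7 had -0.31 (adjusted p = 0.142) and RBX1 0.06 (adjusted p = 0.797).

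Among E1 enzymes for ubiquitin, UBA1 had 20614 and 20782 counts in shYY1, against 17786 and 21250 in shNC (log2 fold change 0.12, edgeR adjusted p = 0.461). UBA6, which charges UBE2Z, had 4979 and 3782 counts in shYY1, against 5993 and 5421 in shNC (-0.35, adjusted p = 0.118). Of 9 E1 genes tested UBA3 alone passed (11.1%, against 9.94% of all genes tested). Of 12 precursor genes of ubiquitin and its relatives, ISG15 and SUMO2 were higher (0.50, edgeR adjusted p = 0.0330, and 0.30, adjusted p = 0.0476). These made up 16.7% of that list. The ubiquitin genes UBB and RPS27A each had 0.25, with edgeR adjusted p-values of 0.192 and 0.288. None of the 8 E2 and E2-like genes with other names passed with edgeR, and DESeq2 called 1. The edgeR unadjusted p was under 0.05 for 2 of them, against 4525 of all 18035 genes tested.

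**Figure D5:**
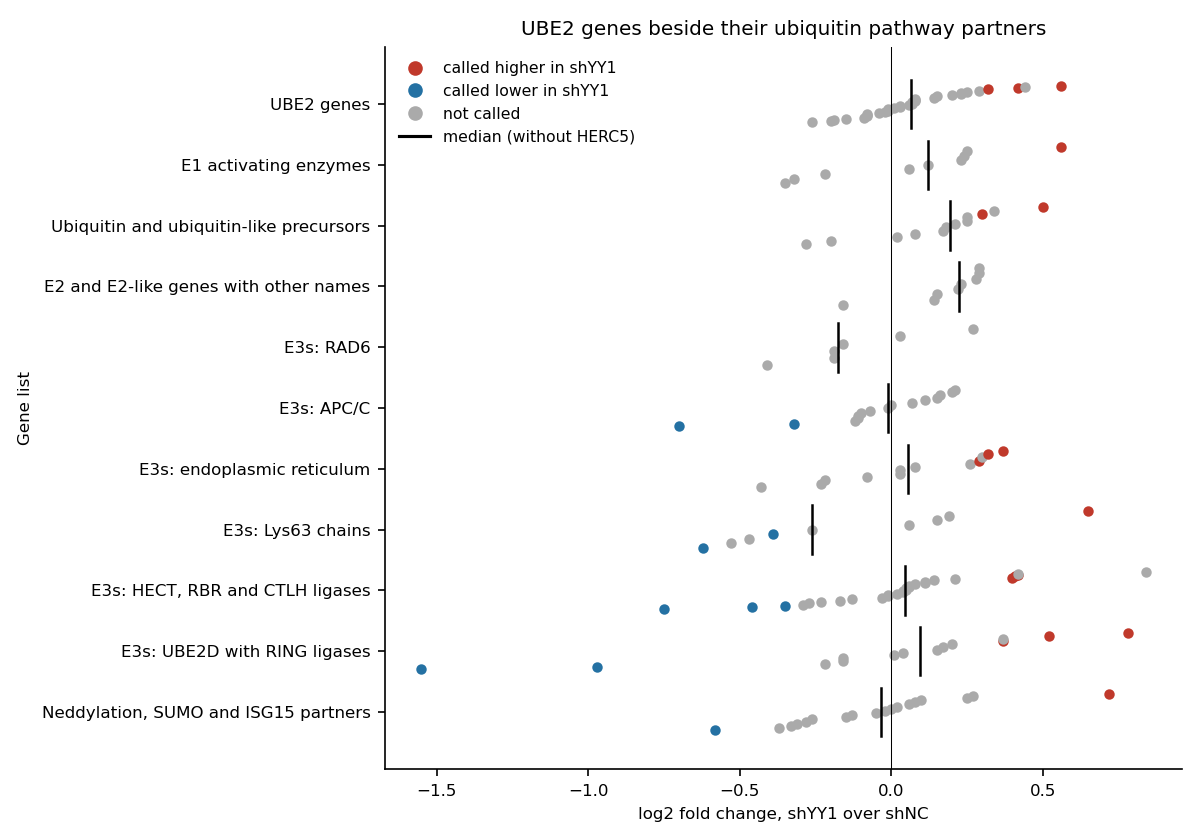
Log2 fold change of shYY1 over shNC (x axis, edgeR) of each tested gene in the UBE2 set and in 10 lists of pathway partners (y axis), with the median of each list as a bar and HERC5 left out. UBE2 genes span -0.26 to 0.56, while MDM2 at -1.55, BIRC2 at -0.97 and RMND5A at -0.75 lie far to the left.

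E3 ligases that use the E2s described above changed in both directions. For the UBE2D group, MDM2, the ligase of p53, had 1403 and 1185 counts in shYY1, against 4309 and 3426 in shNC, 2.92-fold lower (log2 fold change -1.55, edgeR adjusted p = 0.000715). BIRC2, an inhibitor of apoptosis protein, was also lower (-0.97, adjusted p = 0.00771). SIAH2 was higher (0.78, edgeR adjusted p = 0.00215), as was TRIM25 (0.37, adjusted p = 0.0219). Of 14 tested, 3 were higher and 2 lower (35.7%, against 9.94% of all genes tested).

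The CTLH ligase, which works with UBE2H, had its RING subunit RMND5A at 2950 and 2865 counts in shYY1, against 5031 and 5035 in shNC (log2 fold change -0.75, edgeR adjusted p = 0.00153). The CTLH subunit GID8 was also lower (-0.46, adjusted p = 0.0107). Of the HECT ligases SMURF1 was higher (0.42, adjusted p = 0.0121), and so was the RING-between-RING ligase RNF19B (0.41, adjusted p = 0.0243). Over the HECT, RING-between-RING and CTLH list 3 of 28 were higher and 3 lower (21.4%, against 9.94% of all genes tested). UBE2H and UBE2L3, the E2s named with these ligases, did not pass.

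For the APC/C, 2 of 15 genes were lower and none higher (13.3%, against 9.94% of all genes tested). CDC27, a scaffold subunit, had 4919 and 4152 counts in shYY1, against 8125 and 6994 in shNC (log2 fold change -0.70, edgeR adjusted p = 0.00628), and ANAPC5 had -0.32 (adjusted p = 0.0427). For Lys63-linked chains TRAF2 was higher (0.65, edgeR adjusted p = 0.00251). RNF168 and ZNRF1 were lower (-0.62, edgeR adjusted p = 0.0128, and -0.39, adjusted p = 0.0315). Of the 9 genes of that list, 1 was higher and 2 lower (33.3%). For the ER, SYVN1, a central ligase of ER-associated degradation, was higher (0.37, edgeR adjusted p = 0.0252). AUP1, which recruits UBE2G2 to lipid droplets and the ER, and DERL1 were also higher (0.32 and 0.29, edgeR adjusted p = 0.0307 and 0.0440). The ER list thus had 3 of 12 higher (25.0%).

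None of the 6 RAD6 ligases passed with edgeR, and DESeq2 called 1 higher and 1 lower. The edgeR unadjusted p was under 0.05 for 2 of them, against 4525 of all 18035 genes tested. RAD18 had 2621 and 2027 counts in shYY1, against 3298 and 3044 in shNC (log2 fold change -0.41, edgeR adjusted p = 0.0738), and RNF40 had 15891 and 15599 counts in shYY1, against 12632 and 14164 in shNC (0.27, adjusted p = 0.0655). On the ISG15 side, HERC5, the ISG15 ligase, had 21 and 23 counts in shYY1 and 0 in both shNC libraries. Against a floor of 3 counts per shNC library it was at least 7.53-fold higher (edgeR adjusted p = 0.0419), a call that held in 5 of the 10 alternative settings that could test it.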

How the data were processed

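RNA of KYSE30 cells was sequenced in 2 shYY1 and 2 shNC libraries, grouped and numbered by sample title. Raw read counts for each gene and library, as the authors deposited them, were the input to every test. FPKM values, which the authors deposited scaled to gene length and library size, served to compare levels between genes and as a second scale. Bowtie 0.12.2, mm8 and mm9 are named per the submitters' processing notes, but these are mouse builds and cannot describe a table of human gene IDs. The aligner, counter and build are therefore unknown. Of the 34 UBE2 genes, 34 lie on the same chromosome in GENCODE 29 (GRCh38) and 10 have the same start and end there. Coordinates are those of the deposited table, and sequences come from RefSeq promoters and GENCODE 29 transcripts.

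Genes were filtered with edgeR's filterByExpr (minimum count 10, minimum total 15), leaving 18035, and tested by quasi-likelihood in edgeR 4.0.16 under R 4.3.3 (TMM factors 0.98 to 1.04, robust, 2 residual degrees of freedom) with Benjamini-Hochberg adjustment over all of them at 0.05. A gene is called when its adjusted p is under 0.05. CPM values carry the TMM scaling, and standard errors follow from the fold change and its F value. The common biological coefficient of variation was 20.2%. A count of 3 served as the floor, covering counting error only, as the reads carry no molecular identifiers.

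Settings varied 1 at a time were the scaling (RLE factors or library totals), the filter (none, or 5 CPM in at least 2 libraries), robust estimation off, the replicate number as a block, DESeq2 1.42.0, limma-trend (limma 3.58.1) on log2 CPM, log2(FPKM + 1) and log2(FPKM + 0.1), and each library left out. 3′ UTR words were searched in genes with at least 50 bases of 3′ UTR and 5 CPM. The members, roles, partner lists and 3′ UTR words were chosen with earlier results of these data known. Values per library are given for called members, the 5 with the highest mean FPKM, role partners of called members and members singled out after their values were seen. Per partner list up to 4 called genes with the smallest adjusted p are named, plus UBB, RPS27A, UBA1 and UBA6, and a few partners singled out afterwards. Some members and partners are counted but not reported here by name. Simulated counts for shYY1 against shNC over 18035 genes, with 200 changed 1.5-fold, gave 29% recovery overall and 58% at 10 CPM or more, with 18 false calls beside 59 true ones, more than the threshold is meant to allow. The real calls may hold more false ones too.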

Additional observations from a re-analysis of the deposited data

How the results depend on the processing

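YY1 and UBE2O were called in all 14 alternatives and 14 UBE2 genes kept their direction and side of the threshold throughout. Among all genes, DESeq2 called 1470 higher, and the replicate block called 1475 higher and 1427 lower, while leaving out a library gave 425 to 2097 higher and 595 to 1207 lower. In total DESeq2 called 2711 genes and the block 2902, against 1793 in the edgeR fit given above, and 3304 were called without shNC replicate 2 and 1024 without shYY1 replicate 2. Of the UBE2 genes, library totals alone called 1 higher and DESeq2 5 higher. UBE2D3 was the 1 lower gene with library totals, at least 5 CPM, the replicate block, DESeq2 and both FPKM scales. Of all genes, at least 5 CPM called 2412 of 10708 and the block 2902 of 18035. The log2(FPKM + 1) and log2(FPKM + 0.1) scales called 1654 and 1639 of 10939. Leaving out a library gave 1 to 6 UBE2 genes higher and 0 to 1 lower. The replicate block called 4 UBE2 genes higher. Same-numbered libraries did not deviate together (correlation of deviations 0.00395), so the numbers are no evidence of pairing.

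Of the pathway partners, 16 were lower with at least 5 CPM and 17 with the block, and leaving out a library gave 4 to 30 higher and 4 to 15 lower. Uncalled log2 fold changes near 0 changed sign in 10 UBE2 genes. With library totals alone they were -0.03 for UBE2V1, -0.01 for UBE2D2 and -0.02 for UBE2T, with both FPKM scales -0.04 for UBE2V1 and -0.02 for UBE2D2 and UBE2T, and with at least 5 CPM -0.02 for UBE2V1. Leaving out libraries gave -0.04 to 0.03 for UBE2L3, -0.08 to 0.11 for UBE2V1, -0.02 to 0.09 for UBE2D2, -0.04 to 0.11 for UBE2T, -0.06 to 0.03 for UBE2E1, -0.17 to 0.03 for UBE2Z, -0.16 to 0.01 for UBE2A, -0.14 to 0.11 for UBE2J2, -0.10 to 0.03 for UBE2W and -0.63 to 0.15 for UBE2L6. The cause of these shifts was not tested. With 2 libraries a group, simulated 1.5-fold changes were recovered only in part (58%) among genes at 10 CPM or more. Uncalled UBE2 genes are therefore bounded by their intervals and are not shown to be equal.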
